A study of Mus musculus with 15 samples.

Results

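The chemokines and chemokine receptors of mouse macrophages were followed through lipopolysaccharide treatment with and without the transcription factor gene Junb. The family was taken as a list of 35 gene symbols, of which 13 are CC ligands, 12 are CXC ligands, 1 is the CX3C ligand Cx3cl1 and 9 are receptors. Probes were assigned by the RefSeq accession that the array files give. This named a probe for 34 of the 35 genes and left Cxcl11, a CXCR3 ligand, without a value. Cxcr2, the main neutrophil receptor for CXC ligands, did not stand well above background anywhere, so 33 members were tested among 14214 genes in all.

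Bone marrow cells were differentiated into macrophages with MCSF, the macrophage colony-stimulating factor, and RNA was taken 4 h after treatment. The knockout cells had the genotype Junb-fl/fl Lyz2-Cre+/+ on a C57BL/6 background, and the wild type cells were C57BL/6. The Cre recombinase is driven from the Lyz2 locus, a myeloid lysozyme gene, so the knockout cells also carry Cre in both Lyz2 copies, which the wild type cells lack. The groups were knockout with lipopolysaccharide (LPS, a component of the outer membrane of Gram-negative bacteria) at 100 ng/ml (3 arrays), untreated knockout (4 arrays), wild type with LPS (4 arrays) and untreated wild type (4 arrays). The labels call the replicates independent wells and name no separate mice, so a p-value measures at most the spread between wells, which may be technical.

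Chemokines are small secreted proteins that steer the movement of leukocytes through G protein-coupled receptors. They are classed by the spacing of their first cysteines. The CC ligands mainly draw monocytes, T cells and eosinophils. The CXC ligands that bind CXCR2 draw neutrophils, and those that bind CXCR3 draw activated T cells and natural killer cells. Macrophages that sense LPS through Toll-like receptor 4 activate NF-kB, AP-1 and interferon regulatory factors and are a major source of both classes. JunB is a subunit of AP-1 and binds DNA as a dimer with other leucine zipper proteins.

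Levels are given as the log2 of the background-subtracted signal over the array's 75th percentile, so that 0 means a signal equal to that percentile. Values below a common floor of -4.52 were set to it and carry no order. A group wholly at the floor has an SD of 0, which lowers the SE and p-values of its gene in the fit over all groups. The 75th percentile ran between 482 and 1490 signal units over the 15 arrays, and 51.0% to 63.2% of probes were well above background. Levels of different genes are not set against each other, since probes differ in efficiency. Junb itself was at the floor on all knockout arrays and averaged 3.27 with LPS and 0.73 untreated in wild type cells (two-sided exact permutation p = 0.0286 in each condition, the smallest these numbers of arrays can give). The Lyz2 signal was 1829 to 3793 in knockout cells with LPS and 869 to 2424 in untreated knockout cells, against 345888 to 443766 in wild type cells with LPS and 391771 to 448164 in untreated wild type cells. The Y-linked genes Ddx3y and Eif2s3y were well above background on every knockout array and on no wild type array, while Xist, the RNA of the inactive X chromosome, was so on no knockout array and on every wild type array. Probes of 2 other Y-linked genes, Kdm5d and Uty, passed on wild type arrays too. Kdm5d did so on 4 of 4 untreated and 1 of 4 LPS wild type arrays, and Uty on 3 of 4 in each condition. Xist, Ddx3y and Eif2s3y thus gave a male pattern in the knockout wells and a female pattern in the wild type wells, and the labels give no sex. The slides also split by genotype, with the knockout arrays on 1 and those of wild type cells on another. Genotype, sex, Lyz2 disruption and slide therefore cannot be told apart in any comparison of knockout with wild type, whereas each LPS comparison lies within 1 genotype, sex and slide. Each of the 8 macrophage markers with a named probe stood well above background in every group, on 3 or more of its arrays. In such bulk samples, fewer cells of a type and less RNA per cell cannot be told apart.

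Gene order and proximal sequence are given first for the ligands whose values are described most closely below. Among protein-coding genes, Ccl22, Cx3cl1 and Ccl17 lie next to each other on chromosome 8 in the RefSeq gene table of GRCm38.p6. Cxcl3, Cxcl1 and Cxcl2 lie on chromosome 5, which also holds Cxcl5, Ppbp, Pf4, Cxcl9, Cxcl10 and Cxcl13, while 9 CC ligands (Ccl2, Ccl7, Ccl12, Ccl8, Ccl5, Ccl9, Ccl6, Ccl3 and Ccl4) lie on chromosome 11. The 250 bases before the start site are from RefSeq (GRCm38.p6), which had such a window for 26 of the 35 members, and are printed 5′ to 3′ on the gene's strand. Capitals mark matches to AP-1 (TGANTCA), the cyclic AMP response element TGACGTCA, the interferon-stimulated response element (ISRE) and the NF-kB consensus, each searched on both strands, and to TATAAA on the gene's strand. The first 4 windows belong to the ligands with a higher LPS response in knockout cells that showed higher levels there with LPS.
The windows are chr8:94745434-94745683 (plus strand), chr8:94771930-94772179 (plus strand), chr8:94810203-94810452 (plus strand) and chr5:95956689-95956938 (plus strand).
Ccl22: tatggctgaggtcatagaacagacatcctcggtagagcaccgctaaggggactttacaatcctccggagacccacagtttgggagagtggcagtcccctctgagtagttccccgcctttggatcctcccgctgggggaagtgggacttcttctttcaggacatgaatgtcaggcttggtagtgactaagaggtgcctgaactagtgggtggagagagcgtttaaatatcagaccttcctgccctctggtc
Cx3cl1: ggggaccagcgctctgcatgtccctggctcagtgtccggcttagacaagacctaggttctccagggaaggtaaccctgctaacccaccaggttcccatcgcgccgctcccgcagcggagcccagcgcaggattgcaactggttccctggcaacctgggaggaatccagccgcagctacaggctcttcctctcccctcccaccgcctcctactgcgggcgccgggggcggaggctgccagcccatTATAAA
Ccl17: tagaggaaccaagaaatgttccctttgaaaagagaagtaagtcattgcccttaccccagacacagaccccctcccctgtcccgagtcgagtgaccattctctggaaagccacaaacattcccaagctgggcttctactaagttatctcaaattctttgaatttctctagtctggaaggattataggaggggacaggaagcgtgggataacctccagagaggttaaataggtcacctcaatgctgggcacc
Cxcl13: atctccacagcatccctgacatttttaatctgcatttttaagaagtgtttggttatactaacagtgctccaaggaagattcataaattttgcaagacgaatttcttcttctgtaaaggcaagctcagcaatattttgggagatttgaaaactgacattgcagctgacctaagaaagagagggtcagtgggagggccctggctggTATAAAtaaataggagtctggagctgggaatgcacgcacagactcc

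None of these 4 windows held a match to AP-1, the cyclic AMP element, the interferon element or NF-kB, which says only that those letters are not in these 250 bases. The next window, of Cxcl10 at chr5:92348890-92349139 (minus strand), is shown because Cxcl10 had the largest difference between untreated knockout and wild type cells among the CXC ligands. It held matches to AP-1, NF-kB and the interferon element, with the AP-1 match 74 to 68 bases before the start.
Cxcl10: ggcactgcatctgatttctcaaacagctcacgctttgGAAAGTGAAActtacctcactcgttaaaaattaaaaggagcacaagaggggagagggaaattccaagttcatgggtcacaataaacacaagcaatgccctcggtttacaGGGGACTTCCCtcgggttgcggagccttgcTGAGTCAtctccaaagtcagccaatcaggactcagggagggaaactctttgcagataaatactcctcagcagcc

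The last windows, at chr5:90890995-90891244 (plus strand), chr5:90903649-90903898 (plus strand) and chr5:90785851-90786100 (plus strand), belong to neutrophil-attracting ligands that rose strongly in both genotypes. All 3 held the same NF-kB match, GGGAATTTCC.
Cxcl1: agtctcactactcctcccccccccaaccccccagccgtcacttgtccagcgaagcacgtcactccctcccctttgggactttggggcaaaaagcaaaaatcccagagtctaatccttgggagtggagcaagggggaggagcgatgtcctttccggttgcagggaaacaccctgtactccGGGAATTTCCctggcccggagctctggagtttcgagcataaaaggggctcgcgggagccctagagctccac
Cxcl2: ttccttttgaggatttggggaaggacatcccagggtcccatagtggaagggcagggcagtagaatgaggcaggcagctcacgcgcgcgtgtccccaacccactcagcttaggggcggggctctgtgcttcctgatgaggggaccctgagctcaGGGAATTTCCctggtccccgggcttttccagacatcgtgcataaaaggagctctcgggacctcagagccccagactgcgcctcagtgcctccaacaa
Cxcl3: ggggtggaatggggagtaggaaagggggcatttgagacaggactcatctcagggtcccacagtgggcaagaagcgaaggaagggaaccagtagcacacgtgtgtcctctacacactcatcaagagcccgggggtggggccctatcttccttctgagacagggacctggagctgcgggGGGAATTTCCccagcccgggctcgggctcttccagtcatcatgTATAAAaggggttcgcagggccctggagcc

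Members were counted once each, if any of their windows held a match (Ccl25 and Ccrl2 had more than 1 window), while the shares over the whole table are per window. Of the 26 members with a window, 7 held an NF-kB match (Ccl9, Ccr3, Ccrl2, Cxcl1, Cxcl10, Cxcl2 and Cxcl3), against 5% of all 32851 windows. An AP-1 match was present in 4 of 26 (Ccl9, Ccr3, Cxcl10 and Ppbp), against 6.75% of all windows, and the cyclic AMP element in none, against 1.55%. The interferon element was found in 2 (Cxcl10 and Cxcl14), against 2.98%, and TATAAA in 10, against 7.59%. A match describes the letters and not occupancy.

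LPS for 4 h raised most ligands and moved receptors in both directions. In knockout cells 23 of the 33 members rose and 5 fell, where 32.4% of all genes rose and 27.4% fell, 59.9% in all (limma with Benjamini-Hochberg adjustment over all 14214 genes, threshold 0.05, as for every call below). In wild type cells 23 members rose and 4 fell, where 34.9% of all genes rose and 25.5% fell, 60.4% in all. In knockout cells every treated array was above every untreated one for 24 members and below for 5, where 65.5% of all genes had no overlap in either direction. In wild type cells this held for 23 and 4 members, where 52.6% of all genes had no overlap. Among the 25 ligands tested, 20 rose and 1 fell in knockout cells, and 19 rose and 1 fell in wild type cells. Among the 8 receptors, 3 rose and 4 fell in knockout cells, and 4 rose and 3 fell in wild type cells. The median log2 fold change of the ligands was 3.44 in knockout and 2.56 in wild type cells. That of the receptors was 0.14 and 0.80, beside medians over all genes of 0.19 in knockout and 0.14 in wild type cells. The responses of CC and CXC ligands spanned overlapping ranges, from -0.06 to 8.20 and from -0.58 to 8.04 in knockout cells, and from 0.25 to 8.58 and from -1.05 to 7.99 in wild type cells; no test between the classes was made. The CC ligands had a median of 3.44 in knockout and 2.56 in wild type cells, with 11 of 13 rising in each genotype, and the CXC ligands one of 4.75 and 3.29, with 8 of 11 rising in knockout and 7 of 11 in wild type cells. The same 22 members rose in both genotypes, and Cxcl14, Ccr2, Cxcr4 and Cx3cr1 fell in both.

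**Figure D1:**
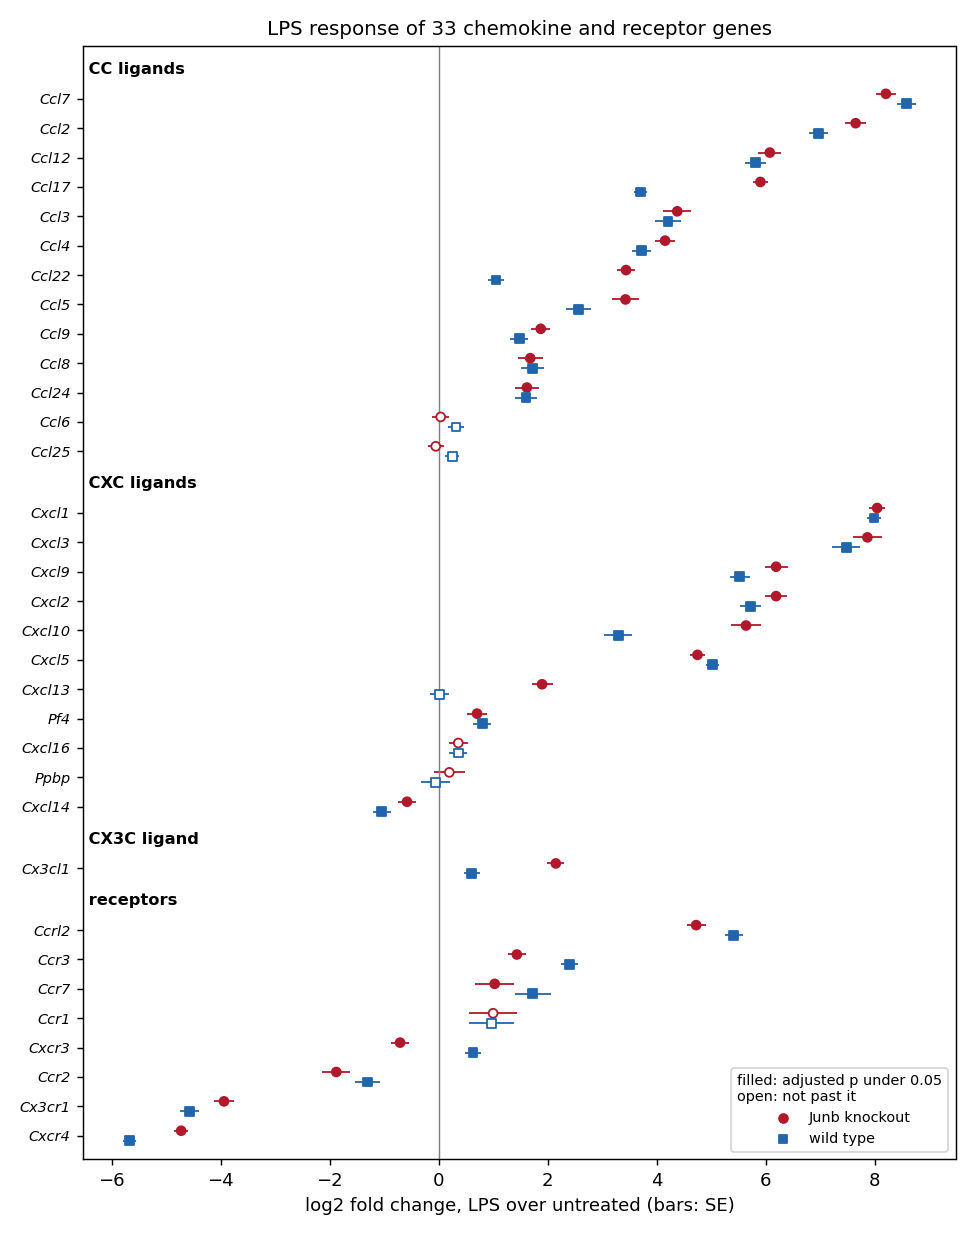
Log2 fold change of LPS over untreated (x axis) for the 33 tested members, grouped by class and ordered by the knockout value. Circles are knockout cells (3 LPS and 4 untreated arrays), squares wild type cells (4 and 4), bars are the SE of the fit, and filled symbols passed an adjusted p of 0.05. The ligands reach 8.20 in knockout and 8.58 in wild type cells (Ccl7), while the receptors spread from -4.73 to 4.72 in knockout and from -5.68 to 5.41 in wild type cells.

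Ccl2, Ccl7 and Ccl12, CC ligands of CCR2, the receptor that brings monocytes to inflamed tissue, were among the most strongly induced. Ccl7 had levels of 6.23, 6.34 and 6.37 in knockout cells with LPS and of -2.35, -1.39, -2.12 and -1.70 in untreated knockout cells, and of 7.77, 7.74, 7.52 and 7.77 in wild type cells with LPS and -0.80, -0.87, -1.13 and -0.72 in untreated wild type cells. The treated and untreated arrays stood far apart in both genotypes, and every knockout array was below every wild type array of the same treatment. The log2 fold change of Ccl7 was 8.20 ± 0.19 in knockout cells (SE, n = 3 and 4; adjusted p = 5.0e-13) and 8.58 ± 0.17 in wild type cells (n = 4 and 4; adjusted p = 8.1e-14). Ccl2, the main monocyte attractant, rose by 7.65 ± 0.19 and 6.96 ± 0.18 in knockout and wild type cells. Ccl12, its close relative in rodents, averaged 2.11 ± 0.10 with LPS and -3.96 ± 0.34 untreated in knockout cells (SD, n = 3 and 4; above the background limit on 2 of 4 untreated arrays), and 3.54 ± 0.21 and -2.27 ± 0.38 in wild type cells (SD, n = 4 and 4). Its rises were 6.07 ± 0.21 and 5.81 ± 0.20 in knockout and wild type cells. Ccl8, another CC ligand of chromosome 11, rose less, by 1.68 ± 0.23 and 1.72 ± 0.21.

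A second group of CC ligands, Ccl3, Ccl4, Ccl5, Ccl6 and Ccl9, which draw monocytes and T cells, showed a graded response. Ccl3 and Ccl4, the macrophage inflammatory proteins, rose by 4.37 ± 0.25 and 4.15 ± 0.18 in knockout cells, and by 4.20 ± 0.23 and 3.72 ± 0.17 in wild type cells. Ccl5, also called RANTES, rose by 3.42 ± 0.25 in knockout and 2.56 ± 0.23 in wild type cells, and Ccl9 by 1.87 ± 0.18 and 1.48 ± 0.16. For Ccl5 the difference of the LPS responses, 0.87 ± 0.34, did not pass (adjusted p = 0.13) but passed under 4 of 25 alternatives. Ccl6 did not pass in either genotype (0.03 ± 0.15 in knockout, 0.31 ± 0.14 in wild type cells), but it was called lower with LPS under quantile normalization (-0.69 in knockout and -0.40 in wild type cells) and in the authors' deposited value table (-0.71 and -0.44). In wild type cells it was called higher without untreated replicate 2 or LPS replicate 4 (adjusted p = 0.040 and 0.045). With LPS, the raw Ccl5 signals lay between 331763 and 351122 on knockout arrays and between 364202 and 387088 on wild type arrays, a highest-over-lowest ratio of 1.06 in each. The 75th percentile varied 1.52-fold over the knockout and 2.21-fold over the wild type LPS arrays. Cxcl10 had signals from 282643 to 312768 on knockout and 308346 to 355032 on wild type LPS arrays, and Ccl3 from 220017 to 246898 and 237222 to 296142. For Ccl9 the highest-over-lowest ratio was 1.26 on knockout and 1.28 on wild type LPS arrays. It was 1.30 and 1.41 for Ccl2, and 1.42 and 1.36 for Ccl4. No spot was flagged as saturated, and whether these bright probes were near the upper end of the scanner's range was not tested. Ccl24, an eosinophil attractant that binds CCR3, rose by 1.62 ± 0.23 and 1.60 ± 0.21 in knockout and wild type cells. Ccl25, the CCR9 ligand, did not pass (-0.06 ± 0.15 and 0.25 ± 0.13); its second probe had -0.12 and -0.31.

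Of the 11 CXC ligands tested, those that bind CXCR2 included the most strongly induced. Cxcl1 averaged 5.53 ± 0.17 with LPS and -2.51 ± 0.22 untreated in knockout cells (SD, n = 3 and 4), and 6.31 ± 0.15 and -1.68 ± 0.18 in wild type cells (SD, n = 4 and 4). Its log2 fold change was 8.04 ± 0.15 in knockout cells (adjusted p = 6.6e-14) and 7.99 ± 0.13 in wild type cells (adjusted p = 1.3e-14), and the difference between them was 0.06 ± 0.20 (adjusted p = 0.88). Of the other CXCR2 ligands 3 also rose in both genotypes. Cxcl2 rose by 6.19 ± 0.20 in knockout and 5.72 ± 0.19 in wild type cells, and Cxcl3 by 7.86 ± 0.27 and 7.47 ± 0.25. Cxcl5 did not exceed background clearly on any untreated array, so its rise was at least 26.8-fold in knockout cells (adjusted p = 3.1e-12) and at least 32.5-fold in wild type cells (adjusted p = 6.0e-13), taken against the common floor. Over the alternatives, which treat low values differently, its lowest fitted log2 fold change was 3.62 in knockout and 4.18 in wild type cells. For none of these 5 CXCR2 ligands did the difference between the genotypes' LPS responses pass in limma (adjusted p from 0.32 to 0.88), where it passed for 10.1% of all genes. Ppbp, the platelet basic protein and the fifth of them, did not pass in either genotype (0.19 ± 0.28 in knockout and -0.06 ± 0.26 in wild type cells).

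Pf4, platelet factor 4, rose slightly in both genotypes (0.70 ± 0.18 in knockout, 0.80 ± 0.17 in wild type cells), but with quantile normalization its knockout value was -0.04 and its wild type value 0.13, neither past the threshold. The summed level of 9 megakaryocyte and platelet markers was 1.13 to 1.98 in knockout cells with LPS and 2.03 to 2.14 in untreated knockout cells, and 0.70 to 0.93 in wild type cells with LPS and 1.34 to 1.85 in untreated wild type cells. Gp1ba and Gp5 among them gave no clear signal on any array, and the part of the others in the Pf4 and Ppbp levels was not tested. Cxcl14, which is made by many epithelia, was the only ligand that fell with scaling by the 75th percentile, by 0.58 ± 0.17 in knockout and 1.05 ± 0.16 in wild type cells on the log2 scale. Cxcl16, a membrane-bound ligand that also binds oxidised lipoproteins, did not pass with that scaling (0.36 ± 0.18 in knockout and 0.36 ± 0.16 in wild type cells). With quantile normalization Cxcl16 was called lower with LPS (-0.36, adjusted p = 0.019, in knockout and -0.33, adjusted p = 0.020, in wild type cells), and likewise in the authors' deposited value table (-0.36 and -0.31). Cxcl9, an interferon-gamma-inducible CXCR3 ligand, rose by 6.19 ± 0.21 in knockout and 5.52 ± 0.18 in wild type cells. Its value on 1 untreated knockout array was missing, as was that of Ccl25, and the fit used the other 3 arrays of that group.

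Between the genotypes the LPS responses of 8 of the 33 members differed. The difference, knockout minus wild type, was above 0 for 6 members, as for 2.9% of all genes, and below 0 for 2, as for 7.15%. Of the 6, 5 were ligands with a larger rise in knockout cells: Ccl17, Ccl22, Cx3cl1, Cxcl13 and Cxcl10. The sixth, Cxcr4, fell less in knockout cells, and the 2 with a difference below 0 were Ccr3 and Cxcr3.

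Ccl17 and Ccl22 both act on CCR4, a receptor of type 2 helper and regulatory T cells. Ccl17 had levels of 1.23, 1.29 and 1.63 in knockout cells with LPS, against -0.71, -0.54, -1.16 and -0.86 in wild type cells with LPS, and was at the floor on all untreated arrays of both genotypes. All knockout LPS arrays were thus above all wild type LPS arrays. The LPS response of Ccl17 was 5.90 ± 0.13 in knockout and 3.70 ± 0.12 in wild type cells, a difference of 2.20 ± 0.18 (adjusted p = 6.2e-06). Ccl22 had levels of -1.49, -1.02 and -0.74 in knockout cells with LPS, against -3.84, -3.39, -3.33 and -3.32 in wild type cells with LPS. Without LPS it did not exceed background clearly on any array. Against the common floor its rise was at least 10.8-fold in knockout cells (adjusted p = 4.1e-10) and at least 2.07-fold in wild type cells (adjusted p = 2.9e-05), and the fitted difference of the responses was 2.39 ± 0.22 (adjusted p = 1.4e-05). With both groups of untreated arrays at the floor, the differences for Ccl17 and Ccl22 rest on the levels with LPS, where genotype, sex and slide cannot be told apart. Those untreated values had an SD of 0, so the SEs and adjusted p-values of both genes are lowered. Over the alternatives tried, their fitted LPS responses moved with the treatment of low values, from 4.64 to 7.21 for Ccl17 and from 2.95 to 5.44 for Ccl22 in knockout cells, and from 2.82 to 4.92 and from 0.90 to 3.05 in wild type cells. Their differences stayed between 1.83 and 2.29 for Ccl17 and between 1.55 and 2.59 for Ccl22, past the threshold in each.

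Cx3cl1, or fractalkine, is a membrane-bound ligand that is shed and acts on CX3CR1. Its levels were 2.87, 2.52 and 2.77 in knockout cells with LPS and 0.45, 0.72, 0.73 and 0.39 in untreated knockout cells. Those in wild type cells were -1.62, -1.78, -1.68 and -1.76 with LPS and -2.45, -2.54, -2.36 and -1.90 untreated. Every knockout array, treated or not, was above every wild type array. The LPS response was 2.15 ± 0.15 in knockout and 0.61 ± 0.14 in wild type cells, and the difference was 1.54 ± 0.21 (adjusted p = 0.00037). In the authors' deposited value table the wild type response was 0.38 and did not pass (adjusted p = 0.16). Knockout exceeded wild type cells by 4.43 ± 0.15 with LPS (adjusted p = 2.1e-10) and by 2.89 ± 0.14 untreated (adjusted p = 9.9e-09), the largest difference with LPS among the 33 members.

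Cxcl13, a B cell attractant that binds CXCR5, was the only member that rose in knockout but not detectably in wild type cells. Its levels were 1.97, 1.77 and 1.77 in knockout cells with LPS and -0.06, -0.12, 0.09 and -0.14 in untreated knockout cells, while in wild type cells they were -0.83, -0.65, -1.15 and -1.46 with LPS and -1.34, -0.67, -0.90 and -1.22 untreated. The wild type groups overlapped and the knockout groups did not. The LPS response was 1.89 ± 0.19 in knockout (adjusted p = 1.2e-06) and 0.01 ± 0.18 in wild type cells (adjusted p = 0.97), a difference of 1.88 ± 0.26 (adjusted p = 0.00046).

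Cxcl10, an interferon-inducible CXCR3 ligand, differed in another way. Its levels with LPS overlapped, at 8.72, 9.18 and 8.68 in knockout cells, against 8.71, 8.79, 8.38 and 9.32 in wild type cells. Untreated, they were 3.05, 3.16, 3.08 and 3.60 in knockout cells, against 4.80, 5.82, 5.43 and 6.01 in wild type cells, without overlap. The LPS response was 5.64 ± 0.28 in knockout and 3.29 ± 0.26 in wild type cells, a difference of 2.35 ± 0.38 (adjusted p = 0.0014). The untreated difference was -2.29 ± 0.26 (adjusted p = 3.5e-05), and that with LPS 0.06 ± 0.28 (adjusted p = 0.91), at the near-constant bright signals given above. The other measured CXCR3 ligand, Cxcl9, was also lower in untreated knockout cells (-1.63 ± 0.20, adjusted p = 0.00010), and the difference of its LPS responses, 0.67 ± 0.28, did not pass (adjusted p = 0.16). The second Cxcl9 probe had a difference of 1.15 and an untreated difference of -2.24. Both include a value at the floor on untreated knockout replicate 3, where the main probe had no value. On the other untreated knockout arrays the second probe had -2.38, -1.84 and -2.09, so the floor value makes both differences larger. Over the alternatives the difference of the LPS responses ran from 0.55 to 2.79 and passed in 1 of 25.

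**Figure D2:**
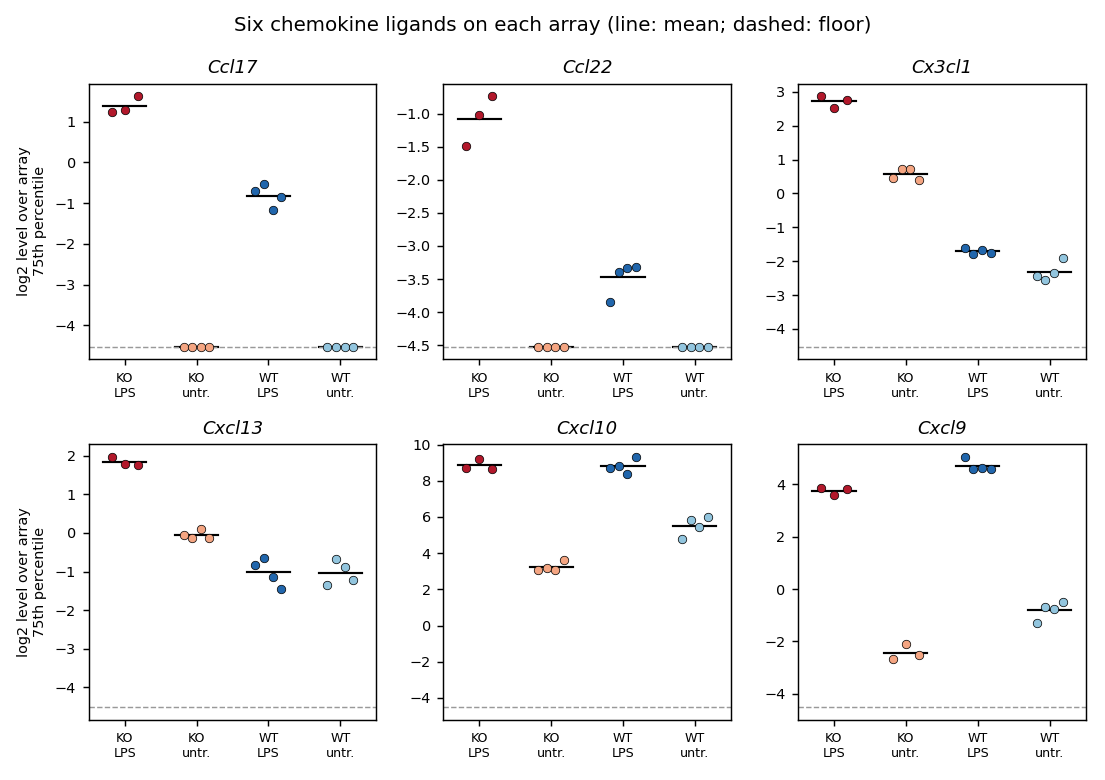
Log2 level over the array's 75th percentile (y axis, its own range in each panel) on every array for 6 ligands, with knockout (KO) left of wild type (WT) and LPS left of untreated. Points are arrays, the solid line is the group mean and the dashed line the floor of -4.52. Ccl17, Ccl22, Cx3cl1 and Cxcl13 are higher on all knockout than on all wild type LPS arrays, while Cxcl10 overlaps with LPS and is lower on all untreated knockout arrays, and Cxcl9 is lower in knockout cells under both conditions.

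The receptors showed the strongest falls. Cxcr4, the CXCL12 receptor that retains leukocytes in bone marrow, had levels of -1.84, -1.57 and -1.85 in knockout cells with LPS and 2.91, 3.21, 2.80 and 2.97 in untreated knockout cells. Those in wild type cells were -2.48, -2.60, -2.27 and -2.57 with LPS and 3.02, 3.26, 3.17 and 3.34 untreated. The treated arrays were far below the untreated ones in both genotypes. Cxcr4 changed by -4.73 ± 0.13 in knockout and -5.68 ± 0.12 in wild type cells, a shallower fall in knockout cells by 0.95 ± 0.18 (adjusted p = 0.0039; in the authors' deposited value table the difference was 0.80, adjusted p = 0.10). Cx3cr1, the fractalkine receptor, changed by -3.94 ± 0.19 in knockout and -4.58 ± 0.17 in wild type cells. Its second probe gave -4.97 and -5.00. Ccr2, the monocyte receptor, changed by -1.88 ± 0.26 in knockout cells (adjusted p = 2.0e-05) and -1.31 ± 0.24 in wild type cells (adjusted p = 0.00025).

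Ccrl2, an atypical receptor that binds chemerin, rose most, by 4.72 ± 0.18 in knockout and 5.41 ± 0.16 in wild type cells. The difference of its responses, -0.69 ± 0.24, did not pass (adjusted p = 0.090) but passed under 2 of 25 alternatives. Ccr3, the eotaxin receptor, had levels of 3.04, 2.95 and 2.94 in knockout cells with LPS and 1.64, 1.74, 1.46 and 1.34 in untreated knockout cells, and of 2.57, 2.55, 2.59 and 2.11 in wild type cells with LPS and -0.30, 0.22, 0.34 and 0.00 in untreated wild type cells. Its rise was 1.43 ± 0.16 in knockout and 2.39 ± 0.15 in wild type cells, and the difference of -0.96 ± 0.22 (adjusted p = 0.015) was -0.24 (adjusted p = 0.92) in the authors' deposited value table. None of the 5 Ccr3 comparisons passed in that table (adjusted p from 0.20 to 0.92). The untreated level was 1.48 ± 0.15 higher in knockout cells (adjusted p = 1.6e-05), and the level with LPS 0.52 ± 0.16 higher (adjusted p = 0.029). The summed level of 8 eosinophil, basophil and mast cell markers was 2.32 to 2.58 times the 75th percentile in knockout cells with LPS and 0.72 to 0.85 in untreated knockout cells. In wild type cells it was 1.01 to 1.89 with LPS and 0.56 to 1.15 untreated. Prg2, Epx, Mcpt8 and Fcer1a among them did not reach clear signal on any array, and the part of the others in the Ccr3 level was not tested. Ccr7, which brings cells to lymph nodes, rose by 1.03 ± 0.36 in knockout cells (adjusted p = 0.024) and 1.72 ± 0.33 in wild type cells (adjusted p = 0.00043). The knockout call was lost without untreated replicate 1 (adjusted p = 0.066) or LPS replicates 2 or 4 (adjusted p = 0.058 and 0.074), with quantile normalization (0.73, adjusted p = 0.066), in the authors' deposited value table (0.52, adjusted p = 0.10) and with a lower floor (adjusted p = 0.059). Ccr1 did not pass in either genotype (1.00 ± 0.45 in knockout and 0.97 ± 0.41 in wild type cells), but it passed as a rise under 4 of 24 alternatives in each. With normexp background correction, for example, it rose by 0.78 in knockout and 0.70 in wild type cells (adjusted p = 0.033 and 0.038). Its probe stood well above background on only 2 of 4 untreated wild type arrays.

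Cxcr3, the receptor of Cxcl9 and Cxcl10, was the only member called in opposite directions. Its levels were -0.74, -0.93 and -1.04 in knockout cells with LPS and 0.03, -0.15, -0.28 and -0.37 in untreated knockout cells. In wild type cells they were -0.69, -0.86, -0.80 and -1.40 with LPS and -1.59, -1.67, -1.50 and -1.49 untreated. The groups overlapped with LPS and stood apart without it. The LPS response was -0.71 ± 0.16 in knockout cells (adjusted p = 0.0014) and 0.63 ± 0.15 in wild type cells (adjusted p = 0.0020), a difference of -1.34 ± 0.22 (adjusted p = 0.0014). The untreated level was 1.37 ± 0.15 higher in knockout cells (adjusted p = 2.2e-05) and the level with LPS did not differ beyond the spread (0.03 ± 0.16, adjusted p = 0.91). Cxcr3 lies on the X chromosome, and the wells of the 2 genotypes differed in the sex-linked transcripts given above. The T and natural killer cell markers Cd3d, Cd3g and Ncr1 gave no clear signal above background on any array. The summed level of all 7 markers of that list, in multiples of the 75th percentile, was 0.77 to 0.84 in knockout cells with LPS and 0.63 to 0.79 in untreated knockout cells. In wild type cells it was 0.95 to 1.25 with LPS and 0.51 to 0.82 untreated.

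**Figure D3:**
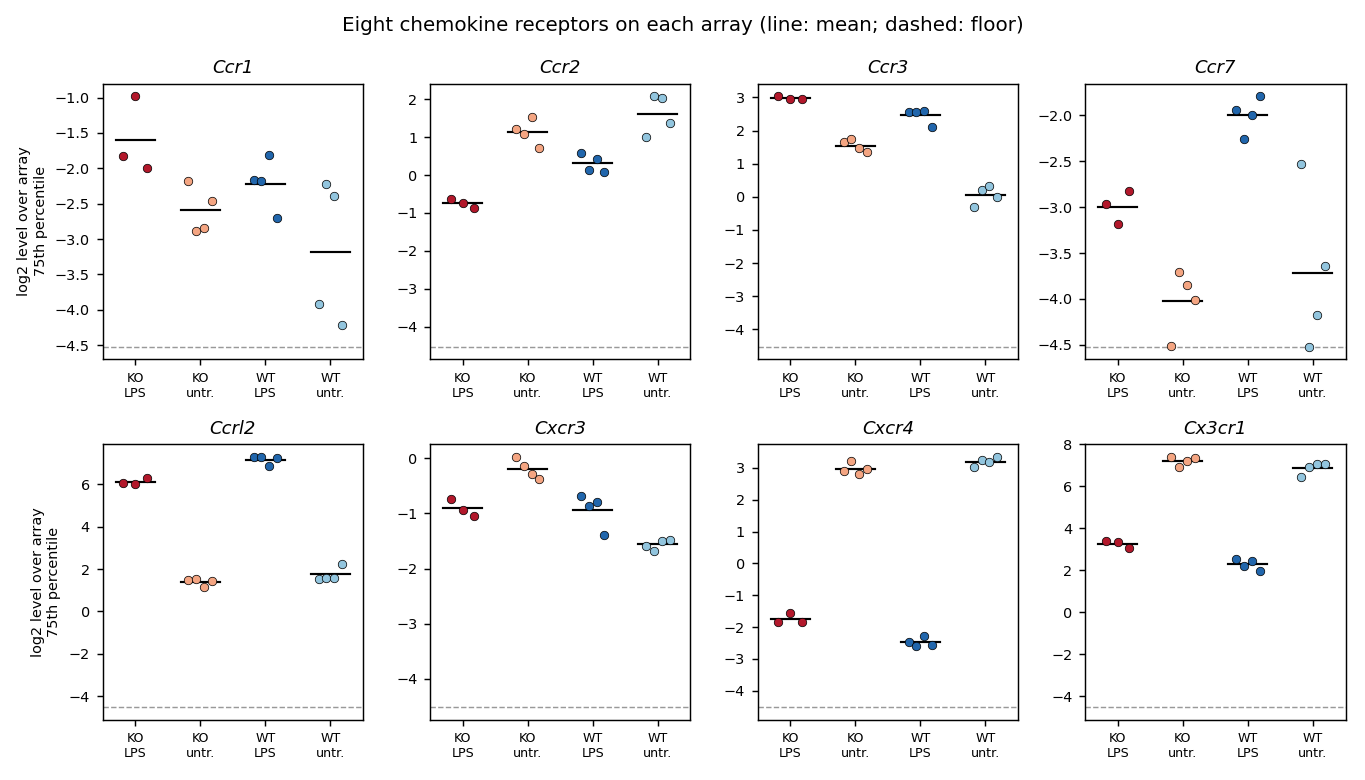
Log2 level over the array's 75th percentile (y axis, its own range in each panel) on every array for the 8 tested receptors, with knockout (KO) left of wild type (WT) and LPS left of untreated. Points are arrays, the solid line is the group mean and the dashed line the floor of -4.52. Cxcr4 and Cx3cr1 are far lower with LPS in both genotypes, Ccrl2 and Ccr3 are higher with LPS in both, and Cxcr3 is lower with LPS in knockout and higher with LPS in wild type cells.

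Untreated knockout cells had lower levels of many ligands. Of the 33 members 13 were lower and 4 higher in untreated knockout than in untreated wild type cells, where 5.83% of all genes were lower and 11.9% higher, 17.7% in all. Every knockout array was below every wild type array for 14 members and above for 4, where 21% of all genes had no overlap in either direction. All 13 that were lower are ligands (7 CC and 6 CXC), and among the 8 receptors 2 were higher and none lower. Without the 3 arrays that deviated most from their group means, the counts were 14 lower and 4 higher. In the authors' deposited value table, which gave a value for 28 members, they were 7 lower and 6 higher. Ccl12 differed by -1.69 ± 0.20 (adjusted p = 4.7e-05), Cxcl3 by -1.31 ± 0.25 (adjusted p = 0.0024), Ccl24 by -1.03 ± 0.21 (adjusted p = 0.0035), Ccl7 by -1.01 ± 0.17 (adjusted p = 0.0012) and Ccl2 by -0.97 ± 0.18 (adjusted p = 0.0017). Ccl4 differed by -0.86 ± 0.17, Cxcl1 by -0.84 ± 0.13 and Ccl9 by -0.66 ± 0.16. Ccl5 (-0.80 ± 0.23, adjusted p = 0.028), Cxcl2 (-0.70 ± 0.19, adjusted p = 0.020) and Ppbp (-0.94 ± 0.26, adjusted p = 0.025) lost their calls when single arrays were left out. Without untreated wild type replicate 2, for example, their adjusted p-values were 0.074, 0.062 and 0.053. The members higher in untreated knockout cells were Cx3cl1, Ccr3, Cxcr3 and Cxcl13, the last by 0.98 ± 0.18 (adjusted p = 0.0018).

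With LPS, 9 members were lower and 8 higher in knockout than in wild type cells, where 17.1% of all genes were lower and 13.6% higher, 30.7% in all. Every knockout array was below every wild type array for 9 members and above for 8, where 42% of all genes had no overlap. Ccl12 (-1.43 ± 0.21, adjusted p = 0.00023), Ccl7 (-1.38 ± 0.19, adjusted p = 0.00011), Ccl24 (-1.02 ± 0.23), Cxcl9 (-0.96 ± 0.20), Cxcl3 (-0.92 ± 0.27) and Cxcl1 (-0.78 ± 0.15) were lower under both conditions, and the differences of their LPS responses did not pass (adjusted p from 0.16 to 0.98). Cxcl9 with LPS did not pass when its 2 probes were averaged (-1.02, adjusted p = 0.092), though the second probe alone differed by -1.09. The averaged fit shares its spread over all groups, and that spread includes the second probe's floor value on untreated knockout replicate 3. Cxcl3 with LPS lost its call without knockout LPS replicate 2 (adjusted p = 0.090). The receptors Ccr2 (-1.05 ± 0.26), Ccrl2 (-1.04 ± 0.18) and Ccr7 (-0.999 ± 0.36, adjusted p = 0.049) were lower with LPS as well, and Ccr7 lost its call under 16 of 25 alternatives, with adjusted p up to 0.16. Higher in knockout cells with LPS were Cx3cl1, Cxcl13 (2.86 ± 0.19), Ccl22 (2.39 ± 0.16), Ccl17 (2.20 ± 0.13), Cx3cr1 (0.99 ± 0.19), Cxcl14 (0.85 ± 0.17), Cxcr4 (0.73 ± 0.13) and Ccr3 (0.52 ± 0.16, adjusted p = 0.029). The second Cx3cr1 probe had a difference of 0.06. Ccr3 lost its call without any 1 of the 3 knockout LPS arrays or without wild type LPS replicate 4 (adjusted p between 0.057 and 0.087).

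Neutrophil markers were also lower in knockout cells by their summed level. The summed level of the 9 markers with a named probe, in multiples of the 75th percentile, was 65.8 to 80.5 in knockout cells with LPS, against 119.6 to 159 in wild type cells with LPS. Untreated, it was 37.8 to 62.9 in knockout and 64.7 to 109.6 in wild type cells. Of 6 markers that could be tested, 3 were lower in knockout cells with LPS and 3 did not pass, where 17.1% of all genes were lower. Their log2 differences ran from -4.05 to 0.50. Untreated, again 3 were lower and 3 did not pass, from -3.08 to -0.05, where 5.83% of all genes were lower. Mpo, a granule enzyme of neutrophil precursors, was not detected above background on any array. The part of these markers in the ligand levels was not tested.

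**Figure D4:**
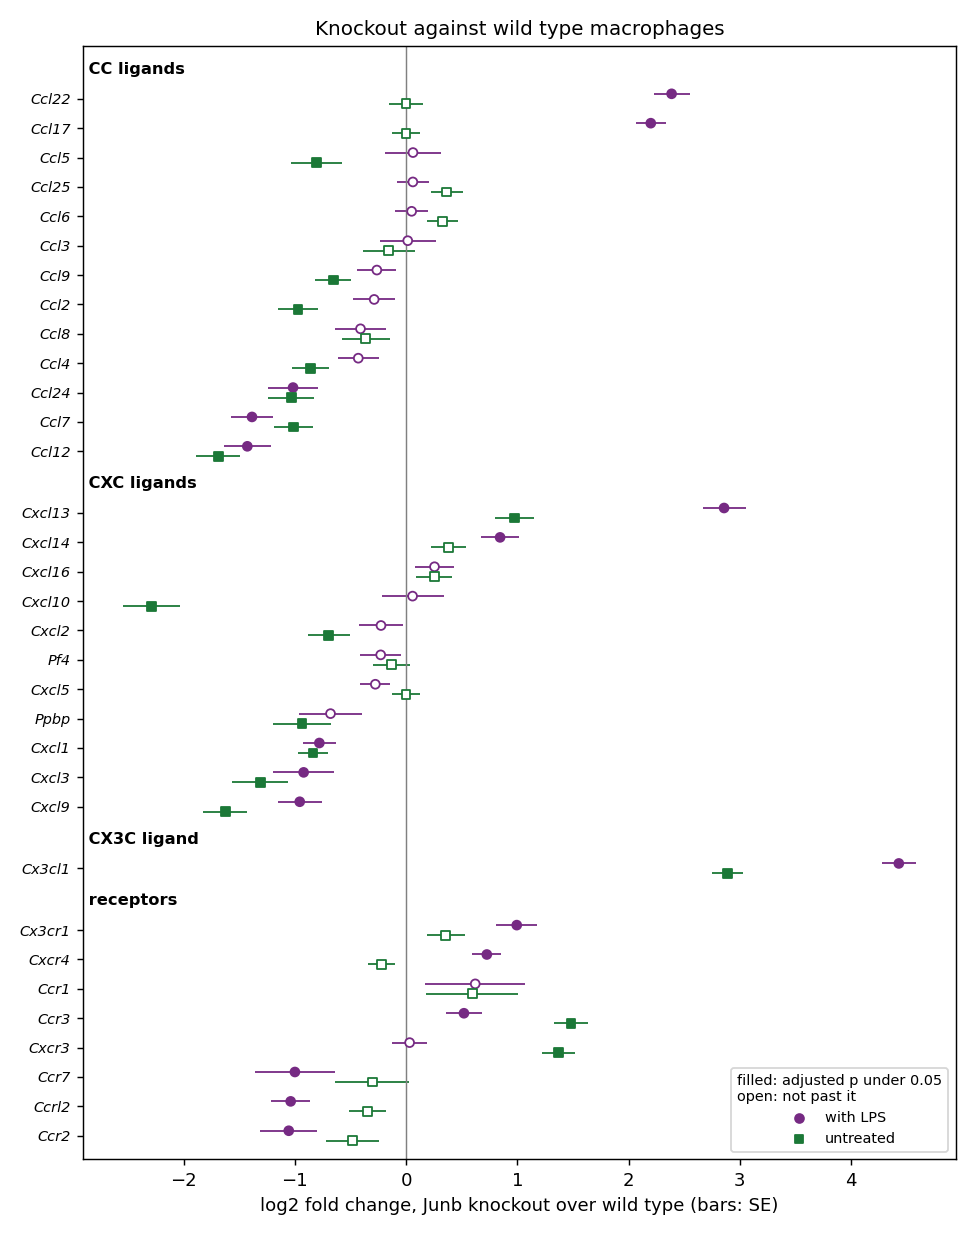
Log2 fold change of knockout over wild type (x axis) for the 33 tested members, grouped by class and ordered by the value with LPS. Circles are cells with LPS (3 knockout and 4 wild type arrays), squares untreated cells (4 and 4), bars are the SE of the fit, and filled symbols passed an adjusted p of 0.05. Most ligands lie left of 0 untreated, with Cxcl10 lowest at -2.29, and Cx3cl1 lies farthest right at 4.43 with LPS.

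Genes of the pathway outside the member list were read from further lists. Of 11 other chemokine ligands 4 could be tested. Ccl20, Ccl19 and Cxcl12 rose in knockout cells (1.15 ± 0.47, 1.00 ± 0.21 and 0.97 ± 0.30), while in wild type cells Ccl19 rose by 0.78 ± 0.19 and Ccl27a changed by -0.73 ± 0.18. The Ccl20 call was at the threshold (adjusted p = 0.0495) and was lost without knockout LPS replicate 3, for example (0.82, adjusted p = 0.21). Of 15 other receptors 8 could be tested, of which 4 rose in knockout and 3 in wild type cells, and none fell, where 32.4% and 34.9% of all genes rose. Ccr9 rose by 2.28 ± 0.16 in knockout and 1.94 ± 0.15 in wild type cells, and Ccr8 by 1.65 ± 0.26 and 1.27 ± 0.24. Ackr2, a decoy receptor that takes up CC ligands, rose by 0.97 ± 0.25 in knockout cells, against 0.12 ± 0.23 in wild type cells, which did not pass, and neither did the difference of 0.85 ± 0.34 (adjusted p = 0.14).

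Of 31 genes of chemokine receptor signalling and desensitisation, 15 rose and 6 fell in knockout cells, and 15 rose and 10 fell in wild type cells. The share of all genes that rose was 32.4% in knockout and 34.9% in wild type cells, and 27.4% and 25.5% fell. The difference of the responses was above 0 for 5 of the 31 and below 0 for 2, where 10.1% of all genes had a difference in either direction. Rgs16, which shortens G protein signals, rose by 4.57 ± 0.20 in knockout and 2.32 ± 0.19 in wild type cells, a difference of 2.25 ± 0.27 (adjusted p = 0.00017). Rgs14, of the same protein family, rose by 0.38 ± 0.13 in knockout and 2.81 ± 0.12 in wild type cells, a difference of -2.43 ± 0.18 (adjusted p = 2.9e-06). Rgs1 rose in both (2.57 ± 0.18 and 2.69 ± 0.17), and Rgs2 changed by -3.98 ± 0.15 in knockout and -3.13 ± 0.14 in wild type cells. Arrb1, a beta-arrestin that uncouples receptors after ligand binding, changed by -2.10 ± 0.15 and -3.23 ± 0.14, a difference of 1.12 ± 0.21 (adjusted p = 0.0037). For Arrb1 the difference was 0.66 with normexp background correction (adjusted p = 0.13) and 0.61 in the authors' deposited value table (adjusted p = 0.18). For Rgs16 it was 1.65 in that table (adjusted p = 0.077).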

How the data were processed

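Single-colour Agilent arrays of Cy3-labelled amplified RNA were scanned and extracted by the authors in Agilent Feature Extraction, per the submitters' processing notes, on a design that refers to mm9. The deposited intensity is the processed signal, which per the file headers is background-subtracted on a linear scale with no scaling between arrays. The deposited value table holds log2 values that followed each array's median spot signal (lowest Spearman correlation 0.968) with column medians of 6.25 to 6.27; its background handling and normalization are not given in the sources used here, and it served as an alternative.

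Control spots and 4827 outlier-flagged spots were left out, each array was divided by its 75th percentile, a common floor of 0.0436 of that percentile was set and log2 taken. Kept probes stood well above background on 3 or more arrays of some group, and a gene took the kept probe with the highest mean level over the arrays that measured it (for Cxcl9 this was the probe with a missing value, though the other was brighter in 3 of the 4 groups). Of 55681 probes, 26582 carried a RefSeq accession with 1 symbol in the RefSeq table of GRCm38.p6, used for names only. One model over all 15 arrays with the 4 group means was fitted in limma 3.58.1 (R 4.3.3), and p-values were adjusted by Benjamini-Hochberg over 14214 genes. The scripts were tested on simulated data. A difference of LPS responses is knockout minus wild type.

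The number of arrays limits the precision. Probes of close relatives such as Cxcl1 to Cxcl3 may share signal. Replicate numbers in the titles do not pair the wells: deviations of same-numbered arrays correlated between -0.53 and 0.56. The members, gene lists, tests and naming rule (all 35 members, and up to 3 genes with the largest called change in each list of other pathway genes per LPS comparison) were chosen with earlier results of these data known. The alternatives were another background correction (normexp, offset 50), quantile normalization, the deposited table, other filters, floor, probe choice and samples, a replicate block and leaving out arrays. The values of 1 gene among the other receptors are not reported here.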

Additional observations from a re-analysis of the deposited data

Results flagged for a closer look

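The LPS responses of 8 members differed between the genotypes by the test of the difference itself (knockout minus wild type, log2 scale): Ccl22 by 2.39, Cxcl10 by 2.35, Ccl17 by 2.20, Cxcl13 by 1.88, Cx3cl1 by 1.54, Cxcr4 by 0.95, Ccr3 by -0.96 and Cxcr3 by -1.34.

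Single arrays stood apart from the other 3 of their group by Dixon's test in 9 of 91 sets of 4 member values, where chance gives about 1 in 20. Of these, 8 were in wild type cells with LPS. Replicate 3 was low there for Ccl7 (7.52, others 7.74 to 7.77), Cxcl3 (7.49, others 7.72 to 7.76) and Ccrl2 (6.87, others 7.22 to 7.29). Replicate 4 was low for Cxcl14 (3.96, others 4.33 to 4.39) and Ccr3 (2.11, others 2.55 to 2.59). Replicate 1 was low for Ccl22 (-3.84, others -3.39 to -3.32) and high for Cxcl9 (5.05, others 4.58 to 4.62), and replicate 2 was high for Ccl24 (1.09, others 0.35 to 0.45). In untreated wild type cells, replicate 4 was high for Ccrl2 (2.26, others 1.55 to 1.60).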

How the results depend on the processing

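Of 97 calls over the members and comparisons, 77 kept their direction and side of the threshold under every alternative that gave them a value (25, or 24 for Ccl3, Ccl9, Pf4, Ccr1 and Cx3cr1, which the deposited table does not cover) and 20 did not under at least 1. Ccl6 and Cxcl16, not called in the main fit, were called lower with LPS in both genotypes under quantile normalization and in the deposited table. With percentile scaling, leaving out some single arrays called Ccl6 higher in wild type cells and Cxcl16 higher in each genotype. Among the 97 calls, values turned sign only for Pf4 with LPS in knockout cells under quantile normalization (-0.043) and for Cxcl9 in knockout against wild type cells with LPS in the deposited table (0.72, from another probe). The number of genes whose LPS response differed between genotypes, 1429, was 792 with normexp, 568 in the deposited table and 2231 without the 3 arrays that deviate most from their groups (untreated knockout replicate 3, untreated wild type replicate 1 and wild type LPS replicate 4), and 932 to 1933 when single arrays were left out, the lowest without knockout LPS replicate 3. For knockout against wild type with LPS it was 4367, against 2728 in the deposited table and 2867 to 4957 without single arrays, and untreated it was 2515, against 1197 in the deposited table. That table held the used probe of 26 of the 33 tested members. There 1 member had a smaller LPS response in knockout cells (Cxcr3, while Ccr3 and Cxcr4 lost their calls), and Ccl5 was added with a larger one (difference 0.73, adjusted p = 0.045). In untreated knockout cells 7 members were lower and 6 higher there, against 13 and 4 in the main fit. Ccl2, Ccl7, Cxcl3, Cxcl9 and Ppbp did not pass as lower, Ccr3 did not pass as higher, and Ccl6, Cxcl14 and Cxcl16 were added as higher. With quantile normalization 8 members were higher in untreated knockout cells, adding Ccl6, Cxcl14, Cxcl16 and Cx3cr1. The cause was not tested in any of these cases beyond the fewer genes and arrays. Quantile normalization moved the median LPS response of all genes to -0.08 in knockout and -0.12 in wild type cells, and the share of rises among calls to 37.2% and 41.7%, where the main values were 54.2% and 57.8% (35.2% and 43.0% from the deposited values). Changes are thus relative to each scaling. Leaving out single arrays kept the members that rose with LPS between 22 and 24 in knockout and 23 and 25 in wild type cells, and those lower in untreated knockout cells between 10 and 14. With the replicate number as a replicate block, 8386, 8439, 1118, 3988 and 2204 genes were called (LPS in knockout, LPS in wild type, difference, knockout against wild type with LPS and untreated), and 2 of 7 LPS arrays correlated best with the untreated array of their own number. Signal near the floor limits Ccl17, Ccl22 and Cxcl5, and near-constant bright signals limit Ccl5, Cxcl10 and Ccl3.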

Other observations

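The protein-coding genes that flank the Ccl22, Cx3cl1 and Ccl17 group on chromosome 8 were read after the ligands' values were seen. Ciapin1, next to Ccl17, rose with LPS by 1.47 ± 0.15 in knockout and 1.498 ± 0.14 in wild type cells (SE, n = 3 and 4, and n = 4 and 4), a difference of -0.03 ± 0.20 (limma, adjusted p = 0.94). Coq9, beyond it, changed by -1.40 ± 0.18 and -1.12 ± 0.17, a difference of -0.28 ± 0.25 (adjusted p = 0.52). On the other side Arl2bp changed by -0.56 ± 0.14 and -0.57 ± 0.13, a difference of 0.01 ± 0.19 (adjusted p = 0.98), and Pllp, between Arl2bp and Ccl22, did not pass the filter on dim probes. None of the 3 flanking genes tested differed between knockout and wild type cells past the threshold, with LPS or untreated (adjusted p between 0.057 and 0.76), where the ligands differed by 1.54 to 2.39 in their LPS responses.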
